A study of Homo sapiens with 74 samples.

Results

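DamID libraries of HEK293T cells from 2 groups were compared: cells with the V133A variant of the bacterial methylase Dam fused to lamin B1 (V133A Dam-LMNB1, 2 libraries), and cells with V133A Dam that carried no fusion partner (V133A Dam, 2 libraries). The 4 libraries were chosen as the columns of the deposited table of Dam variants that bear these names, out of 74 samples in the series. HEK293T is an embryonic kidney line of human origin that carries the SV40 large T antigen. Per the labels, the cells were transfected transiently with FuGene HD and given Shield-1, a ligand that stabilises tagged proteins, for 20 hours. The same treatment text, which names Dam-LMNB1 and m6A-Tracer, stands on all the samples, so it does not say what else the V133A Dam cells received. The labels do not say whether the replicates were separate transfections, and the p-values therefore measure only the spread between libraries, which may be technical. The fit took that spread from all 8 libraries of the table, those of wild-type Dam among them. In transient transfection, a library also pools cells with different amounts of the methylase.

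Dam methylates the adenine of the sequence GATC, which human cells do not themselves methylate. A Dam fused to a protein of the nuclear lamina, the meshwork under the inner nuclear membrane, marks the DNA that comes close to that membrane, and the free Dam marks DNA according to how open it is. DpnI cuts GATC only when it is methylated, so a sequenced DpnI fragment had a methylated site at both ends. Lamina-associated domains (LADs) are long, gene-poor stretches of mostly silent chromatin, and the stretches between them (iLADs) hold most active genes. The study compared wild-type Dam with the V133A variant in the same table. The comparison described here asks where, and in how fine a pattern, the V133A fusion departs from its own untethered control.

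The deposited unit is the DpnI fragment, the stretch between 2 neighbouring GATC sites. The promoters below are shown because their GATC sites, in capitals, are the only places in these windows where either methylase could leave a mark, and they were chosen after their values were seen. Each runs from 250 bases before to 50 bases after the gene start in the direction of transcription (RefSeq, GRCh38.p14). The first pair belongs to genes of low RNA (at most 1.11 CPM in untreated cells) whose 100 kb bins were higher with the fusion. UGT2B11 encodes an enzyme that conjugates glucuronic acid to steroids and bile acids (minus strand, chr4:69214699-69214998). CDH12 encodes a cadherin of the nervous system (minus strand, chr5:22853295-22853594).

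UGT2B11: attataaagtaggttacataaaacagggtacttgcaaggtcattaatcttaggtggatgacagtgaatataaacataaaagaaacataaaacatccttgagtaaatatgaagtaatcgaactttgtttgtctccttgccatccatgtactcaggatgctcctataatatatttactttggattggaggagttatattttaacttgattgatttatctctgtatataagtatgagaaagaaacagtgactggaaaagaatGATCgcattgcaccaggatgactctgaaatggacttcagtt
CDH12: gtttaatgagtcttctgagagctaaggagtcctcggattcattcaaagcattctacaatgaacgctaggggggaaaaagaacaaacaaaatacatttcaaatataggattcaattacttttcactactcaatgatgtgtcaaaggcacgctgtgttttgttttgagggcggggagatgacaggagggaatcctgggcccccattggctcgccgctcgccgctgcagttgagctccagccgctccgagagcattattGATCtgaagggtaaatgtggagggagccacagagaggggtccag

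The second pair belongs to active genes whose 100 kb bins were lower with the fusion. PSMB5 encodes a catalytic subunit of the proteasome (minus strand, chr14:23035171-23035470). HOXA10 encodes a homeobox transcription factor (minus strand, chr7:27179812-27180111). The call of the HOXA10 bin (edgeR, adjusted p = 0.0475) was lost with the replicate block, with DESeq2's size factors and without either Dam library or Dam-LMNB1 replicate 1.

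PSMB5: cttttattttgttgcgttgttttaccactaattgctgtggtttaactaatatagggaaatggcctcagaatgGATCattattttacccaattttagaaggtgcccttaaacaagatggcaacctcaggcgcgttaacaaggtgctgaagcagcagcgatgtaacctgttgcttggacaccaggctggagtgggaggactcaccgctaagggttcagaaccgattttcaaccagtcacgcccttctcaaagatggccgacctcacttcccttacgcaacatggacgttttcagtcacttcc
HOXA10: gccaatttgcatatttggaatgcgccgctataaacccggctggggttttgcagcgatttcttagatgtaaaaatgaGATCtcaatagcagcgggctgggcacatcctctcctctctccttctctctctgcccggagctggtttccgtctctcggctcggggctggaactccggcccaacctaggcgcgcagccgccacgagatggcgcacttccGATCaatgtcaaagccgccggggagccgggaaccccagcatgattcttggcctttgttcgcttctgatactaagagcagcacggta

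The third pair belongs to RO60, which encodes an RNA-binding autoantigen, and UCHL5, which encodes a deubiquitinase of the proteasome. Their starts lie close to each other on opposite strands, and their 40 kb bin was lower inside a stretch that was higher (plus strand, chr1:193059362-193059661, and minus strand, chr1:193060027-193060326).

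RO60: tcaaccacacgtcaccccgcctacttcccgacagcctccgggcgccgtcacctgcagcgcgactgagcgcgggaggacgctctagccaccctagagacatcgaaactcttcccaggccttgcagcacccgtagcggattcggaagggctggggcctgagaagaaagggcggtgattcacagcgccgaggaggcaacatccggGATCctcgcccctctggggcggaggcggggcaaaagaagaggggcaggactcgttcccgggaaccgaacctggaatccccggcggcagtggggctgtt
UCHL5: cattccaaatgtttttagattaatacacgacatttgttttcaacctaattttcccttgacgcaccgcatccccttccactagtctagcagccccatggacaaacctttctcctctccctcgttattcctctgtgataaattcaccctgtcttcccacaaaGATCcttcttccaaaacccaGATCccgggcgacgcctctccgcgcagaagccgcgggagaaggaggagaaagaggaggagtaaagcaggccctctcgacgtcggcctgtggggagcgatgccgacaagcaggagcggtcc

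All 18717 GATC sites in the autosomal promoter windows fell on a fragment end of the deposited table, so the windows and the fragments share coordinates. A GATC was present in 39.5% of 15101 promoters of placed genes, in 44.1% of the 1686 in LAD bins and in 38.8% of the 10104 in iLAD bins. The letters were searched as GATC, which reads the same on both strands. At single promoters the libraries were sparse. The fragment at the UGT2B11 start (611 bp) had 43 counts in Dam-LMNB1 replicate 1 and 0 in the other 3 libraries. The fragment at the CDH12 start (341 bp) had 13 counts in Dam-LMNB1 replicate 2 and 0 in the other 3. The fragment at the HOXA10 start (586 bp) had 0 counts in both Dam-LMNB1 libraries, 48 in Dam replicate 1 and 12 in Dam replicate 2. The fragment at the PSMB5 start (244 bp) went against its bin, with 17 counts in Dam-LMNB1 replicate 1 and 0 in the other 3. The start fragments of RO60 (181 bp) and UCHL5 (390 bp) had 0 counts in all 4 libraries. The start fragment of a gene in an iLAD bin had a count in 6.27% and 6.54% of cases with Dam-LMNB1 and in 8.20% and 6.98% with Dam. The same shares in LAD bins were 10.8% and 13.3% with Dam-LMNB1 and 13.6% and 12.2% with Dam. Single start fragments therefore separated the groups little, and the results below rest on sums over bins.

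The table held 7180359 fragments, of which 6749703 lay on chromosomes 1 to 22 with a median length of 262 bp. Total counts were 9375210 and 9008454 in the Dam-LMNB1 libraries and 7941667 and 5190357 in the Dam libraries. Untreated cells of the series expressed the HEK293T genes PAX2 (5.47 and 4.50 CPM, the counts scaled to a common total per library), LIN28B (123 and 124 CPM) and NEFM (241 and 230 CPM), and ALB, AFP, PTPRC, ESR1 and KRT19 were all under 1 CPM.

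Dam-LMNB1 reached fewer fragments than Dam, and a covered fragment held more raw counts, which are not scaled to the library totals. At least 1 count fell on 459402 and 459238 autosomal fragments with Dam-LMNB1 (6.81% and 6.80%), and on 737418 and 767971 with Dam (10.9% and 11.4%). A covered fragment held 19.6 and 18.9 counts with Dam-LMNB1 and 10.2 and 6.37 with Dam. To see where the missing fragments lay, bins were classed as LAD (9849 bins) or iLAD (10024 bins) from the separate, deeper bulk libraries of the series, which compared the same pair of constructs. In LAD bins coverage was alike in all 4 libraries: 11.8% and 12.4% of fragments with Dam-LMNB1 and 11.1% and 11.8% with Dam. In iLAD bins it was 3.34% and 2.96% with Dam-LMNB1 and 10.9% and 11.1% with Dam, and the groups did not overlap. The depth of a covered fragment in LAD bins was 23.5 and 22.1 counts with Dam-LMNB1 against 11.4 and 6.93 with Dam. In iLAD bins it was 10.1 in both Dam-LMNB1 libraries and 8.95 and 5.76 with Dam. Since the total counts were larger with Dam-LMNB1, no difference between the groups is read from the depths in iLAD bins. Within each library, the log2 ratio of LAD over iLAD depth was 1.21 and 1.13 with Dam-LMNB1 and 0.35 and 0.27 with Dam.

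**Figure D1:**
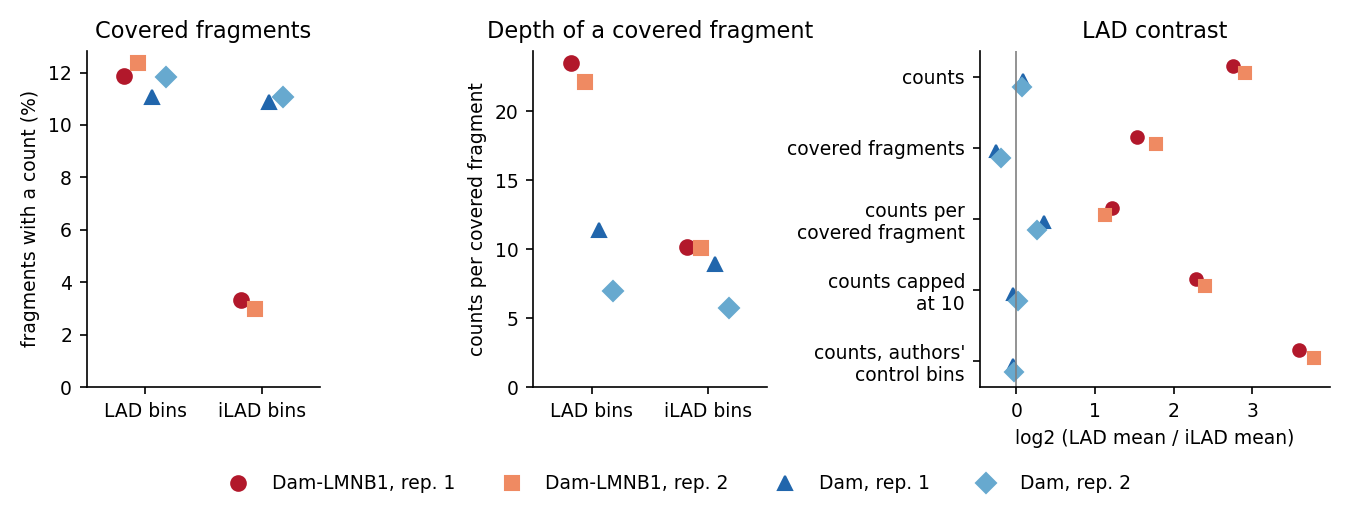
Left and middle, percent of DpnI fragments with a count and counts per covered fragment, by bin class of the deep bulk map; right, log2 ratio of the mean per LAD bin over the mean per iLAD bin, by measure. Each point is 1 of 4 libraries (red, V133A Dam-LMNB1; blue, V133A Dam). Coverage separates the groups in iLAD bins, at 3.34% and 2.96% against 10.9% and 11.1%, and not in LAD bins.

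The LAD contrast, the log2 ratio of mean counts per LAD bin over mean counts per iLAD bin, was 2.75 and 2.90 with Dam-LMNB1 and 0.085 and 0.074 with Dam. By counts per bin, Dam alone thus marked both classes about equally, and both fusion libraries marked LAD bins more. The rise was 2.75 ± 0.11 (SD, n = 2 against 2), a factor of 6.72. With 2 against 2 libraries the exact two-sided permutation test cannot go below p = 0.333, which is the value it gave. Covered fragments alone gave a rise of 1.88 ± 0.17, and counts per covered fragment gave 0.86 ± 0.08. By covered fragments per bin, the Dam libraries stood at -0.26 and -0.19, so the near equality depends on the measure. Of all counts in the classed bins, 86.9% and 88.0% lay in LAD bins with Dam-LMNB1 and 51.0% and 50.8% with Dam. In the bins that the authors mark as control LADs and iLADs, the rise was 3.73 ± 0.14.

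Fragment length moved with coverage but not with the direction. In the 6 length classes between the shortest and the longest, the rise of the contrast lay from 2.69 to 2.90. It was 2.40 under 100 bp, where 0.58% and 0.43% of fragments were covered with Dam-LMNB1, and 2.00 in the class of the longest fragments, which holds 0.371% of them. The 2 Dam-LMNB1 libraries shared 25.7% of their covered fragments with each other over all bins. In LAD bins they shared 33.4% and 32.1%, close to the 32.7% and 30.6% that the Dam libraries shared there. In iLAD bins they shared 9.37% and 10.6% and the Dam libraries shared 30.2% and 29.7%. Since a shared percentage moves with coverage, which was 3.34% and 2.96% against 10.9% and 11.1% there, no difference is read from these values. Of the 39593 fragments covered in both Dam-LMNB1 libraries and in neither Dam library, 77.2% lay in LAD bins. Of the 130948 fragments covered in both Dam libraries and in neither Dam-LMNB1 library, 53.0% fell in iLAD bins, and a further 20.1% in LAD bins. Of all fragments, 32.7% lay in LAD and 40.6% in iLAD bins.

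Summed to 100 kb bins, 7641 of 27212 tested bins (28.1%) were higher with Dam-LMNB1 and 6496 (23.9%) were lower, or 52.0% in either direction, at a Benjamini-Hochberg adjusted p under 0.05 in edgeR's quasi-likelihood test. A median higher bin held 82.7 and 86.5 CPM with Dam-LMNB1 and 30.1 and 30.2 CPM with Dam. A median lower bin held 6.80 and 6.85 CPM with Dam-LMNB1 and 31.4 and 31.3 CPM with Dam. The Dam level per bin was thus nearly the same in both kinds of bin, which held a median of 223 (higher) and 270 (lower) fragments. Since the bins were called on the ratio of these same libraries, nothing further is read from the difference in the Dam-LMNB1 level. Both Dam-LMNB1 libraries lay above both Dam libraries in 7630 of the 7641 higher bins, and below both in all 6496 lower bins. Over all 27212 tested bins, called or not, they lay above both in 10328 (38.0%) and below both in 11264 (41.4%). Without Dam replicate 1 the lower bins numbered 3234, and without Dam replicate 2 they numbered 3374. Scaling by library totals moved the median of all bins from -0.10 to -0.50 and the split to 5286 higher and 9105 lower bins.

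The calls followed the deep bulk map, whose libraries are separate. Of the higher bins, 7238 were LAD bins, 0 were iLAD bins, and 322 had no call there. Of the lower bins, 5773 were iLAD bins and 718 had no call. The 2 lower bins inside the LAD class were chr11:95200001-95300000, which holds SESN3, a stress-induced gene of the sestrin family, and chr21:6800001-6900000, which holds no protein-coding gene. The SESN3 bin had 24.6 and 27.3 CPM with Dam-LMNB1 and 59.0 and 45.6 CPM with Dam, a log2 fold change of -1.01 ± 0.35 (adjusted p = 0.0273). In the deep libraries the same bin stood at 0.47. Across 27119 bins tested in both sets, log2 fold changes had r = 0.864 and rho = 0.892, and 90.8% had the same sign. Bins are not independent, and both sets share the constructs and the genome, so no p is given.

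Bins were ordered by the deep map and split into 10 groups. The Dam-LMNB1 mean went from 6.62 and 6.10 CPM per bin in the lowest group to 84.4 and 87.2 CPM in the highest, and rose at each step. The Dam means stayed between 29.5 and 37.1 CPM in all 10 groups.

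**Figure D2:**
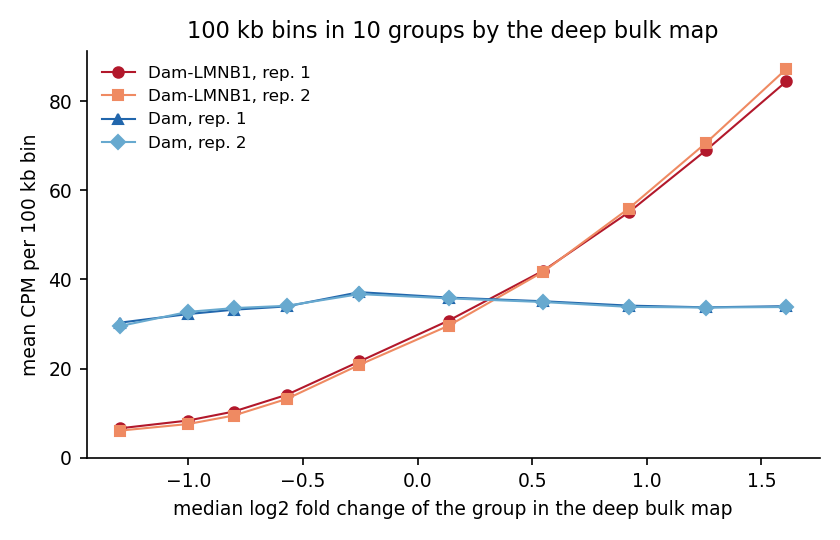
Mean CPM per 100 kb bin (y) in 10 groups of bins ordered by their log2 fold change in the deep bulk libraries (x, median of the group), 1 line per library. Both Dam-LMNB1 libraries rise from under 7 CPM to over 84 CPM, and both Dam libraries stay between 29.5 and 37.1 CPM.

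Chromosomes differed in the same way. Chromosome 4 had 52.8% of its tested bins higher and chromosome 13 had 44.4%, while chromosome 19 had 0% and chromosome 22 had 0.535%. Chromosome 13 took 8.50% and 8.80% of the counts with Dam-LMNB1 and 5.41% and 5.35% with Dam. Chromosome 22 took 0.27% and 0.26% with Dam-LMNB1 and 1.17% and 1.19% with Dam, and 65.0% of its bins were lower.

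Genes were scarce in higher bins. A gene was placed at its start (15101 genes) or, where no start was known, at the middle of its span (3890 genes). Of 18991 placed protein-coding genes, 1320 (6.95%) lay in a higher bin and 8560 (45.1%) in a lower one, or 1.73 and 13.2 genes per Mb. RNA of at least 1 CPM in untreated cells was found for 39.2% and 38.8% of the former genes (2 RNA libraries) and for 75.9% and 75.7% of the latter. Without either Dam library the genes in lower bins numbered 4224 and 4380, and those in higher bins 782 and 801. With library totals they numbered 11309 and 685.

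A few families lay mostly or wholly in higher bins, where 6.95% of all placed genes lay. All 10 type 2 UDP-glucuronosyltransferase genes, whose products attach glucuronic acid to hormones, bile acids and drugs, lay there, in 8 bins of chromosome 4. The bin of UGT2A3 had 119 and 102 CPM with Dam-LMNB1 and 28.5 and 36.3 CPM with Dam, a log2 fold change of 1.77 ± 0.28 (edgeR, adjusted p = 0.00033). All 4 autosomal SLITRK genes, which encode synaptic adhesion proteins of neurons, were in higher bins. The bins of SLITRK1, SLITRK5 and SLITRK6 lie in the same run of higher bins (chr13:80400001-93100000), so they are not separate places. The SLITRK1 bin had 219 and 183 CPM with Dam-LMNB1 and 31.8 and 37.6 CPM with Dam, a log2 fold change of 2.54 ± 0.25. The SLITRK5 bin had 192 and 205 CPM with Dam-LMNB1 and 72.5 and 72.3 CPM with Dam, although the gene had RNA at 75.1 and 74.9 CPM. The groups did not overlap in any of these bins.

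Other neuronal families were mixed, and their counts are read against the 6.95% of all placed genes in higher and 45.1% in lower bins. Of 6 contactin genes, which encode axonal adhesion proteins, 5 were in higher bins, such as CNTN3 with 83.0 and 81.5 CPM against 32.1 and 40.7 CPM (log2 fold change 1.18 ± 0.33). CNTN2 was in a lower bin, with 10.2 and 4.03 CPM with Dam-LMNB1 and 31.1 and 46.5 CPM with Dam. With library totals, 0 contactins were in higher bins, without either Dam library 2 were, and without Dam-LMNB1 replicate 1, 3 were. The CNTN3 call was lost without Dam replicate 1 and with library totals, and the CNTN2 call without Dam replicate 2. Of 4 LRRTM genes, which encode organisers of excitatory synapses, LRRTM1 (1.99 ± 0.39) and LRRTM4 (2.16 ± 0.36) were in higher bins and LRRTM2 (-2.21 ± 0.47) in a lower one. GABA-A receptors are ion channels that quiet neurons, and of their 16 genes 6 were in higher bins, among them GABRA2 (39.4 and 26.7 CPM against 7.79 and 6.46 CPM), and 3 in lower ones, among them GABRD (-2.48 ± 0.74). Without Dam replicate 1 and with library totals 4 of them were higher and without Dam replicate 2, 3 were, and without either Dam library 1 was lower, GABRD being lost in both cases. Of 23 cadherin genes, 7 were in higher and 7 in lower bins. CDH10, CDH12 and CDH18, cadherins of the nervous system on chromosome 5, had log2 fold changes of 1.64, 1.81 and 1.60, while CDH1, the epithelial cadherin, stood at -1.58 ± 0.63 (edgeR, adjusted p = 0.0485), a call lost without either Dam library, without Dam-LMNB1 replicate 1 and with DESeq2's size factors. Without Dam replicate 2, 4 cadherins were higher. Without Dam replicate 1 and 2, 3 and 2 were lower.

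Clusters of sensory and skin genes split by place. Of 386 olfactory receptor genes in 167 bins, 157 (40.7%) were in higher and 41 (10.6%) in lower bins, where 6.95% and 45.1% of all placed genes were, at a median log2 value of 0.88 against -1.39 over all placed genes. The OR10AG1 bin on chromosome 11 had 54.1 and 49.1 CPM with Dam-LMNB1 and 18.1 and 12.9 CPM with Dam. The OR10H1 bin on chromosome 19 had 1.01 and 3.76 CPM with Dam-LMNB1 and 14.3 and 22.4 CPM with Dam, a call lost without either Dam library or Dam-LMNB1 replicate 1. Without Dam replicate 1 and 2 the receptors in higher bins numbered 87 and 100 and those in lower bins 24 and 21, and with library totals 91 were higher. Of 53 clustered protocadherin genes in 9 bins, 15 (28.3%) were in higher and 0 in lower bins, and without Dam replicate 2 the higher ones numbered 4. Of 94 keratin-associated protein genes in 18 bins, 19 (20.2%) were in higher and 50 (53.2%) in lower bins. The KRTAP13-3 bin had 80.6 and 45.1 CPM with Dam-LMNB1 and 19.0 and 15.4 CPM with Dam, while the KRTAP10-10 bin, also on chromosome 21, had 5.67 and 0.40 CPM with Dam-LMNB1 and 28.9 and 24.6 CPM with Dam. Higher keratin-associated genes numbered 7 without Dam replicate 1, without Dam-LMNB1 replicate 1 or with library totals, and lower ones 14 and 26 without Dam replicate 1 and 2. Members of these families share bins and near-identical sequence, so the counts are not independent.

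Of the housekeeping lists, all but histones had shares in lower bins from 46.8% to 55.9%, beside 45.1% of all placed genes, and nothing particular to them is read from these counts. Of 80 cytosolic ribosomal protein genes in 78 bins, 42 were in lower bins and 1 in a higher one. That gene was RPL10L, a retrogene active in the testis, with 61.6 and 81.8 CPM against 23.6 and 36.9 CPM, a call lost without Dam replicate 1, without Dam-LMNB1 replicate 2 and with library totals. The RPL10A bin had 3.15 and 2.82 CPM with Dam-LMNB1 and 27.0 and 22.9 CPM with Dam, a log2 fold change of -3.06 ± 0.68. Of 47 proteasome genes, 26 were in lower bins. PSMD14, a deubiquitinase of the proteasome lid, was the only one in a higher bin (1.00 ± 0.36), with RNA at 97.4 and 105 CPM, and its call was lost with library totals and without either Dam library or Dam-LMNB1 replicate 2. Of 77 mitochondrial ribosomal protein genes 36 were in lower bins, and of 34 genes for subunits of complex I of the respiratory chain 19 were, both with 0 in higher bins. Of 69 replication-dependent histone genes, which lie in 9 bins, 54 (78.3%) were in lower bins, and H1-1 stood at -2.23 ± 0.41. Without Dam replicate 1 and 2, the lower bins held 23 and 24 ribosomal, 17 and 14 proteasome, 16 and 15 mitochondrial ribosomal, 10 and 11 complex I and 27 and 27 histone genes.

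For nuclear regulators, the shares in lower bins were 58.3% of lamina genes, 41.0% of HOX, 33.3% of MCM and 32.8% of ZNF genes, beside 45.1% of all placed genes. Differences between these shares were not tested. Of 12 genes of the lamina and inner nuclear membrane, 7 were in lower bins, among them LBR, the lamin B receptor (7.56 and 21.2 CPM against 62.6 and 65.5 CPM), and LMNA, which encodes lamins A and C (-1.73 ± 0.53, a call lost without Dam replicate 2). The bin of LMNB1 itself, whose product is the fusion partner, had 12.1 and 18.4 CPM with Dam-LMNB1 and 21.1 and 22.5 CPM with Dam, a log2 fold change of -0.52 ± 0.51 (edgeR, adjusted p = 0.41). Of 39 HOX genes, body-plan regulators in 10 bins, 16 were in lower and 0 in higher bins. That count was 6 and 5 without Dam replicate 1 and 2, 31 without Dam-LMNB1 replicate 2, 30 with library totals, and 7 with either DESeq2's size factors or the replicate block. For the nuclear membrane genes it was 3 without Dam replicate 1 and 4 without Dam replicate 2. Of 9 helicase genes of the MCM family, which opens DNA for replication, 3 were in lower bins, and the count was 6 without Dam-LMNB1 replicate 1 and 8 with library totals. Of 467 ZNF genes, 153 were in lower and 6 in higher bins, and without Dam replicate 1 and 2 the lower ones numbered 67 and 69 and the higher ones 2 and 3. Of 39 beta-defensin genes, which encode antimicrobial peptides, 18 were in lower and 4 in higher bins, and 2 were higher without either Dam library, without Dam-LMNB1 replicate 2 or with library totals. Bitter taste receptor (9 of 24 higher, 3 lower), clade B serpin (2 of 13 higher, 4 lower) and type I interferon genes (3 of 17 higher, 0 lower) had medians of 0.26, 0.15 and 0.13, which turned to -0.14, -0.24 and -0.27 with library totals, so no direction is given for them. Without either Dam library or Dam-LMNB1 replicate 2, 1 bitter taste receptor gene was higher and 0 were lower, and without Dam-LMNB1 replicate 1, 5 were higher. Without Dam replicate 1, 0 interferon genes were higher, and without Dam-LMNB1 replicate 1, 4 serpins were.

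**Figure D3:**
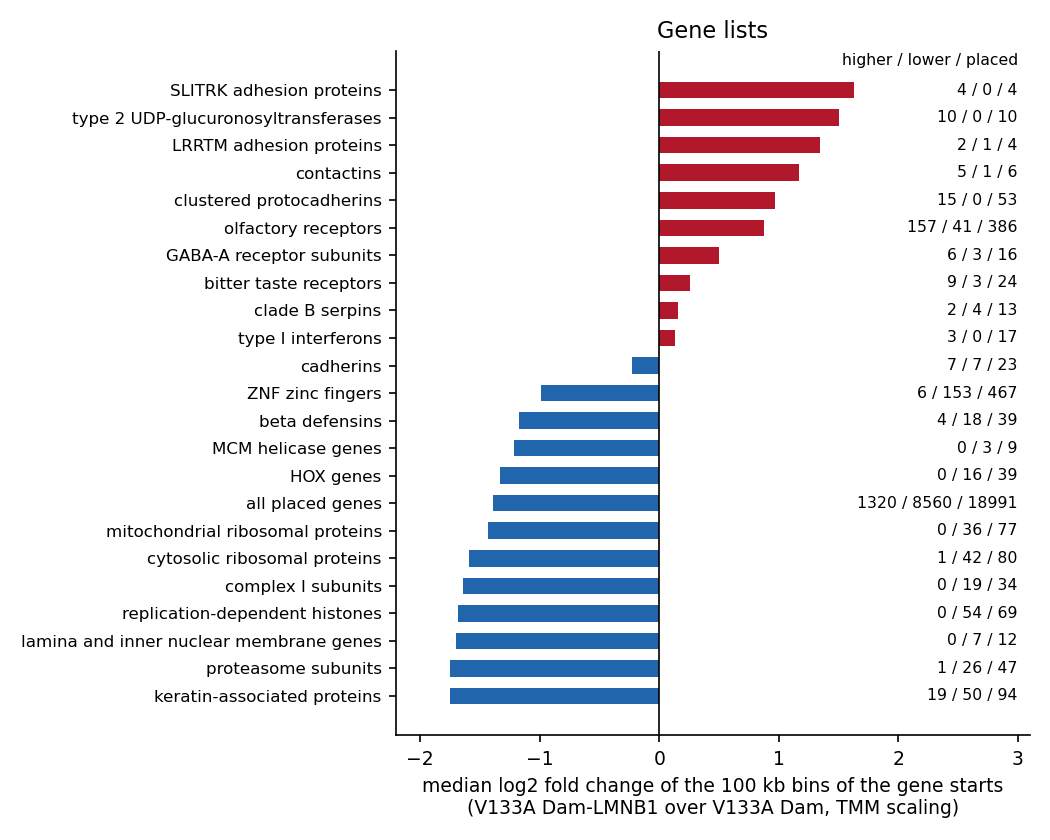
Bars, median log2 fold change (V133A Dam-LMNB1 over V133A Dam) of the 100 kb bins in which each list's genes were placed. Placement was by start or, where no start was known, by the middle of the span. Numbers at the right give genes in higher bins, in lower bins and placed. SLITRK, LRRTM, contactin, clustered protocadherin, glucuronosyltransferase and olfactory genes lie above 0, and cadherins at -0.23. Cytosolic ribosomal, proteasome and histone genes lie below -1.5 and mitochondrial ribosomal genes at -1.43, and all placed genes have a median of -1.39. The sign of the 3 lists between 0.13 and 0.26 turns with library totals.

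Higher bins formed runs, some of them long. Consecutive higher bins made 1506 runs covering 764.1 Mb, with 195 runs of 1 Mb or more. Lower bins made 2636 runs covering 649.6 Mb, with 66 of that length. The median run was 0.2 Mb in both directions. The longest higher run was 12.7 Mb of chromosome 13 (chr13:80400001-93100000), 127 bins with 6 protein-coding genes, among them GPC5, a heparan sulfate proteoglycan of the cell surface. Its mean per bin was 211 and 223 CPM with Dam-LMNB1 and 64.1 and 62.8 CPM with Dam, against a median Dam level of 29.3 CPM over all tested bins. Copy number of this stretch in the line was not measured. Further long runs held ADGRL3 and EPHA5, an adhesion receptor and an ephrin receptor of neurons (chr4:57200001-66500000), the protocadherins PCDH10 and PCDH18 (chr4:129300001-138600000), the synaptic adhesion gene CADM2 (chr3:79100001-88000000), and CDH9 and CDH10 (chr5:23200001-31200000). The longest lower run was 3.3 Mb of chromosome 1 (chr1:228100001-231400000) with 35 genes, among them ACTA1, the actin of skeletal muscle, and AGT, which encodes angiotensinogen. It had 15.4 and 16.1 CPM per bin with Dam-LMNB1 and 60.6 and 57.3 CPM with Dam. Joining runs over 1 uncalled bin left 850 higher and 1429 lower runs, the longest 13.5 Mb and 8.0 Mb.

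The 6 higher bins with the largest fold changes among those with a gene held olfactory receptor genes in 4 cases, amylase genes in 1 and PID1 in 1. The bin chr1:248400001-248500000, with OR2T1, OR2T2 and OR2T3, had 53.4 and 43.5 CPM with Dam-LMNB1 and 3.44 and 7.51 CPM with Dam (3.16 ± 0.67). The bin of OR2AJ1, OR2AK2 and OR2L13 (chr1:247900001-248000000) stood at 2.83 ± 0.49 and the bin of the amylase genes AMY1A, AMY1B and AMY2A (chr1:103600001-103700000) at 3.03 ± 1.12. The bins of OR5AP2, OR5AR1 and OR5M1 (chr11:56600001-56700000) and of OR5M3, OR5M8 and OR5M9 (chr11:56400001-56500000) stood at 2.66 and 2.62. The call of the last was lost without Dam replicate 2, and that of the amylase bin without either Dam library and with library totals (adjusted p = 0.0626, edgeR). The amylase copies are nearly identical, and no source used here states how reads were shared among them. The bin of PID1, a gene of insulin signalling (chr2:229100001-229200000), had 70.6 and 48.2 CPM with Dam-LMNB1 and 9.62 and 9.61 CPM with Dam. Among lower bins, chr11:3100001-3200000 with OSBPL5, a lipid transfer gene, had 0 counts in both Dam-LMNB1 libraries and 81 and 61 counts in the Dam libraries. With a floor of 3 counts per library it was at least 25.5-fold lower. The bin chr20:59300001-59400000 with EDN3, which encodes endothelin 3, had 2 and 0 counts with Dam-LMNB1 and 12.4 and 14.9 CPM with Dam, a ratio of 103 (95% interval from counting 28.0 to 854). The other 4 lower bins with the largest fold changes hold NPIPB5, NPIPA8 and NPIPA9, copies of beta-defensin genes and an unnamed gene. Those of NPIPA8 and of the unnamed gene were lost without Dam replicate 1 or either Dam-LMNB1 library.

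In finer bins the test made few calls. Of 132743 tested 20 kb bins, 1 was higher (0.000753%) and 7 were lower (0.00527%) by edgeR, or 0.00603% in all, while 32430 had an unadjusted p under 0.05 and DESeq2 called 5316 higher and 14380 lower. The 7 lower bins included intervals within NVL, a ribosome assembly factor gene (0.75 and 0.75 CPM against 34.1 and 33.2 CPM), within CREB5, a transcription factor gene (0 counts in both Dam-LMNB1 libraries, 158 and 147 with Dam), within GLB1L3 (0 counts against 203 and 93) and within ETFA, an electron transfer flavoprotein gene. None of the 8 bins stayed called without any 1 of the 4 libraries. Set against the classes of the deep map, whose libraries are separate, both Dam-LMNB1 libraries lay above both Dam libraries in 59.2% of the 48916 tested 20 kb bins of LAD bins and below both in 3.23%. In the 48708 of iLAD bins the shares were 1.34% above and 65.7% below. Over all tested 20 kb bins they were 26.0% above and 32.9% below.

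At 40 kb, a width chosen after the 20 kb calls were seen, 7992 of 67346 bins were higher and 5382 lower (19.9%). Without either Dam library both counts were 0. The common spread between replicates (biological coefficient of variation) was 0.754 at 20 kb, 0.541 at 40 kb, 0.440 at 60 kb and 0.238 at 200 kb. A long higher run at 40 kb held KLHL1, a gene of Purkinje neurons (chr13:68840001-71280000, 107 and 116 CPM per bin against 28.9 and 28.9 CPM). The longest lower run held DMAP1, ERI3 and KLF18 (chr1:44120001-44400000, 0.75 and 0.55 CPM per bin against 12.7 and 12.6 CPM). Another held NUMB, a regulator of Notch signalling (chr14:73280001-73480000, 2.01 and 2.01 CPM against 18.4 and 20.3 CPM).

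In a search for stretches of up to 200 kb with 3 called bins of the other direction on each side, 2 lower 40 kb bins between higher bins were found. One held the starts of RO60 and UCHL5 (chr1:193040001-193080000). It had 9.68 and 9.39 CPM with Dam-LMNB1 and 34.0 and 31.1 CPM with Dam, a log2 fold change of -1.77 ± 0.44 (edgeR, adjusted p = 0.0186), between flanks with a median of 1.65. The other held OBI1, a ubiquitin ligase gene of replication origins, and POU4F1, a neuronal transcription factor gene (chr13:78600001-78640000). It had 26.1 and 33.0 CPM with Dam-LMNB1 and 76.8 and 79.5 CPM with Dam, a log2 fold change of -1.40 ± 0.33 (adjusted p = 0.0164), between flanks with a median of 1.53. All 4 genes had RNA of 10 CPM or more. Neither bin was called without either Dam library, but no 40 kb bin was called then, so this is not particular to them. The call of 1 of the 2 bins was also lost without Dam-LMNB1 replicate 1.

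As a group, expressed genes inside LADs showed a dip of Dam-LMNB1 at their start. The 100 kb bins of RO60, UCHL5 and POU4F1 had no call in the deep map and are not part of that group. No gene in a LAD bin of the deep map was placed in a lower 40 kb bin. Of genes that start in LAD bins of the deep map, 398 had RNA of 10 CPM or more and a known strand. In the 20 kb bin of their start, Dam-LMNB1 had 11.9 and 12.4 CPM per bin, against 17.3 and 17.3 CPM in the bin 200 kb upstream. Dam had 8.94 and 8.66 CPM at the start, against 7.80 and 7.82 CPM upstream. Relative to the mean of the bins 100 to 200 kb away, the start bin stood at -0.46 and -0.44 on the log2 scale with Dam-LMNB1 and at 0.18 and 0.16 with Dam. The difference was -0.62 ± 0.02 (SD, n = 2 against 2), and the groups did not overlap. This measure is taken within each library, so scaling does not enter it. The next bin downstream gave a difference of -0.53 ± 0.03. At the starts of 946 silent genes in LAD bins, with RNA under 1 CPM, the start bin stood at 0.04 and 0.01 with Dam-LMNB1 and at 0.01 and 0.00 with Dam. For 291 genes between these levels the difference was -0.29 ± 0.04. In iLAD bins, 6108 genes of 10 CPM or more gave -0.21 ± 0.05 at the start and 2264 silent genes -0.05 ± 0.03. Each of these comparisons has 2 against 2 libraries, so an exact permutation p cannot go below 0.333.

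**Figure D4:**
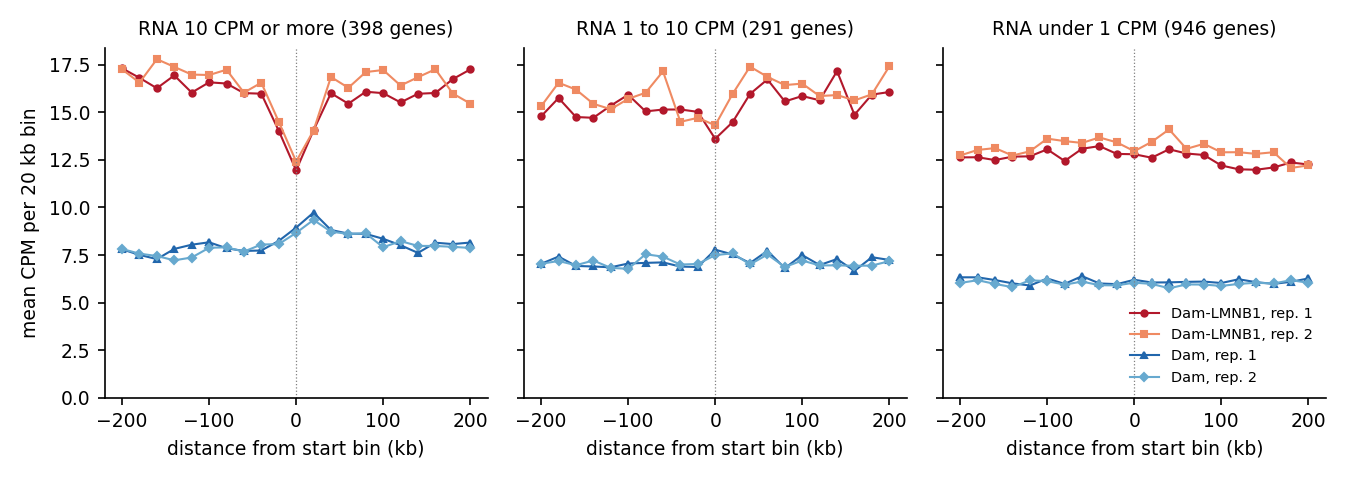
Mean CPM per 20 kb bin (y) against distance from the bin of the gene start in the direction of transcription (x, kb), for genes in LAD bins of the deep map split by RNA in untreated cells, 1 line per library. At genes of 10 CPM or more both Dam-LMNB1 libraries fall to 11.9 and 12.4 CPM at the start and both Dam libraries rise to 8.94 and 8.66 CPM, and at silent genes the start bin differs from the flanks by 0.04 or less on the log2 scale in each library.

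With 8 of 132743 bins called at 20 kb, the adjusted threshold cannot decide on the dip at single genes. The genes below were taken from the higher 100 kb bins of these same libraries, and not from the LAD bins of the deep map. Of 1310 genes in higher 100 kb bins that were placed in a tested 20 kb bin, 35 (2.67%) had both Dam-LMNB1 libraries below both Dam libraries there. Of these, 15 had RNA of 10 CPM or more. Among all genes with RNA data in higher 100 kb bins, 20.8% and 20.7% reached 10 CPM in the 2 RNA libraries. Of all 20 kb bins inside higher 100 kb bins, 1.05% lay below in this way. The 20 kb bin of SLC25A13, an aspartate-glutamate carrier of mitochondria, had 3 and 12 counts with Dam-LMNB1 and 33 and 36 with Dam (edgeR, adjusted p = 0.263 at 20 kb), in a 100 kb bin at 1.05. The 20 kb bin of KCTD3, a regulator of ion channels, had 25 and 26 counts with Dam-LMNB1 and 82 and 61 with Dam. SMIM30 had 42 and 15 against 105 and 61 counts, and ABHD10, a mitochondrial thioesterase gene, 26 and 92 against 178 and 107.

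Across LAD borders the change was carried by Dam-LMNB1. At 55 borders of the deep map with 3 LAD bins facing 3 iLAD bins across at most 3 uncalled bins, Dam-LMNB1 had a mean of 12.5 and 13.1 CPM per 20 kb bin from 400 to 100 kb inside the LAD and 4.21 and 4.13 CPM from 200 to 600 kb outside. Dam had 6.57 and 6.51 CPM inside and 7.61 and 7.63 CPM outside. The 2 Dam-LMNB1 lines fell below both Dam lines from the bin centred 30 kb outside the border on, apart from the bin at 50 kb, where they overlapped. The border is known only to the 100 kb bin, and uncalled bins lie outside it, which spreads the change in this average.

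**Figure D5:**
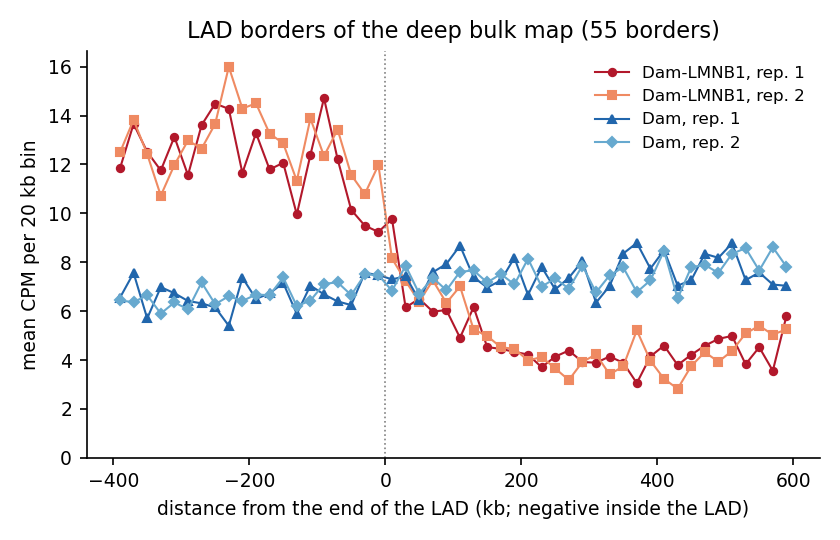
Mean CPM per 20 kb bin (y) against distance from the outer end of the last LAD bin (x, kb; negative inside the LAD) over 55 borders of the deep map, 1 line per library. The Dam-LMNB1 lines fall across the border, and the Dam lines change little.

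Single fragments gave 54 calls of 334469 tested (0.0161%), 1 higher (0.000299%) and 53 lower (0.0158%), with 17039 at an unadjusted p under 0.05 by edgeR. Of the 53, 15 lay within chr16:46385647-46401874 and 5 within chr16:34573564-34595444, on both sides of the centromere of chromosome 16, where satellite repeats recur and reads cannot be placed with certainty. The fragment chr16:46390069-46390538 had 580 and 226 counts with Dam-LMNB1 and 1184 and 1303 with Dam, or 45.9 and 18.1 CPM against 161 and 291 CPM (log2 fold change -2.82). The 1 higher fragment, chr1:633902-635048, had 2538 and 3806 counts with Dam-LMNB1 and 856 and 724 with Dam, or 201 and 304 CPM against 116 and 162 CPM (log2 fold change 0.86), in a stretch that carries a nuclear copy of mitochondrial DNA. The TMM factors of the fragment fit were 1.35 and 1.39 for Dam-LMNB1 and 0.93 and 0.86 for Dam. At 100 kb they were 0.85 and 0.83 for Dam-LMNB1 and 1.10 and 1.10 for Dam. Fragment CPM and fold changes thus stand lower for Dam-LMNB1 than on the scale of the bins, and the split into higher and lower fragments depends on this scaling. Of the lower fragments, 16 had 0 counts in both Dam-LMNB1 libraries and 19 to 155 counts in Dam replicate 1 and 29 to 131 in Dam replicate 2, and 15 of the 16 lay in iLAD bins. One of them, chr6:170323684-170324530 inside FAM120B, a coactivator gene, had 118 and 112 counts with Dam. In 27 of the 33 called fragments with counts in all 4 libraries, the standard error of the fit was smaller than that from the spread of their own replicates, so no standard errors are given and the calls may be too many. Without Dam replicate 2 there were 0 higher and 5 lower fragments, and without any other 1 library 0 higher and 16 lower.

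The same table allowed the contrast to be set beside that of wild-type Dam. The wild-type Dam-LMNB1 libraries stood apart from each other, with 6.19% and 11.9% of fragments covered and 24.3 and 5.82 counts per covered fragment. In the same fit the wild-type pair had 694 higher and 60 lower 100 kb bins. Without wild-type Dam-LMNB1 replicate 1 it had 0 and 0, and without replicate 2 it had 1687 and 900. Median log2 fold changes were 1.32 in LAD and -1.64 in iLAD bins for V133A, and 0.63 and -0.58 for wild type. The difference between the 2 contrasts passed in 39 higher and 102 lower bins of 100 kb. It passed in 0 bins without wild-type Dam-LMNB1 replicate 1 or any 1 of the 4 Dam libraries, in 382 and 442 without wild-type Dam-LMNB1 replicate 2, and in 575 and 1866 or 414 and 1791 without V133A Dam-LMNB1 replicate 1 or 2. At 20 kb and 40 kb it passed in 0 bins, with 11628 and 8046 at an unadjusted p under 0.05 (edgeR).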

How the data were processed

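The authors deposited a table of whole-number read counts per DpnI fragment, raw and not normalized. Reads were handled with Trimmomatic 0.39, BWA 0.7.15-r1140, SAMtools 1.9 and bedtools 2.28 on hg38, per the submitters' processing notes, with roles that no source used here states. RNA levels are estimated counts per gene of untreated cells, as the authors deposited them, scaled here to CPM. The authors also deposited a log2 fold change per bin of the deep bulk libraries, not used for the classes, and marks of control bins, per the file headers. Counts were summed by fragment midpoint to bins of 20, 40, 60, 100 and 200 kb. All 8 libraries of the table entered 1 fit with 4 groups (edgeR 4.0.16, R 4.3.3, TMM scaling, quasi-likelihood test), and p-values were adjusted by Benjamini-Hochberg over chromosomes 1 to 22 and X and a threshold of 0.05, and results are given for chromosomes 1 to 22. LAD and iLAD classes come from a separate edgeR fit of the deep bulk counts per 100 kb bin at the same threshold. DESeq2 1.42.0 was an alternative. Standard errors are the log2 fold change divided by the root of F. Replicate numbers did not pair the libraries. Intervals and floors cover counting error only. Named bins are those with the largest fold changes among called bins with a gene, named runs the longest at 100 and 40 kb (widths taken after the 20 kb calls were seen), and named list members up to 4 per class in alphabetical order. The comparison and the gene lists were chosen with earlier results of these data known. In the authors' table, 54 single-cell columns were not used. Not all regions and genes that these rules name are reported here.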

Additional observations from a re-analysis of the deposited data

Results flagged for a closer look

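The V133A and the wild-type contrasts differed in 100 kb bins by the interaction term in edgeR (Benjamini-Hochberg adjusted p under 0.05). In 39 bins the log2 fold change was larger for V133A than for wild type, and in 102 bins it was smaller, while 5967 bins had an unadjusted p under 0.05. The median difference was 0.69 over LAD bins and -1.05 over iLAD bins. Both counts were 0 without wild-type Dam-LMNB1 replicate 1 or any 1 of the 4 Dam libraries.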

How the results depend on the processing

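At 100 kb, leaving out 1 library gave 5428 to 7191 higher and 3234 to 7004 lower bins. With 1 library left in a group, that library is assumed to vary like the others. At 20 kb, higher and lower bins numbered 503 and 523 without the filter, 5316 and 14380 with DESeq2, 359 and 2350 with covered fragments, 1350 and 1510 with counts capped at 10, and 1315 and 1384 with covered fragments and no filter (chosen after seeing the data). Lower 20 kb bins numbered 13 with DESeq2's size factors and 12 with library totals, and leaving out any 1 library gave 0 to 0. With the 4 V133A libraries alone and with the replicate block, 20 kb bins numbered 0 and 0. At 100 kb the block gave 7590 and 6549, and the 4 V133A libraries alone gave 7328 higher and 4741 lower bins. Fragments numbered 2 higher with DESeq2's size factors, 10 higher and 32 lower with library totals, 0 higher and 4 lower with a minimum of 20 counts, 0 and 0 with 4 libraries, and 0 to 0 higher and 5 to 16 lower without 1 library. At 40 kb, library totals gave 3796 higher, 4 libraries 5098 and 2025, DESeq2 13158 and 12213, bins of 200 kb 4695 higher, and leaving out 1 library 0 to 6708 higher and 0 to 8284 lower. The rise of the LAD contrast was 1.88 with covered fragments, 2.35 with capped counts and 3.73 in control bins (2.52 covered). Joined runs numbered 850 and 1429, and lower 20 kb runs 12 with library totals. By the 100 kb bin of their placement, genes numbered 1320 higher and 8560 lower, and 685 and 11309 with library totals. Leaving out 1 library (chosen after seeing the data) gave 0 to 575 higher and 0 to 1866 lower bins for the difference between the V133A and wild-type contrasts at 100 kb, and 0 to 1687 and 0 to 900 for the wild-type contrast. The causes were not tested.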
